A study of Rattus norvegicus with 8 samples.

Results

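The mitochondrially encoded subunit genes of respiratory complex I are Mt-nd1, Mt-nd2, Mt-nd3, Mt-nd4, Mt-nd4l, Mt-nd5 and Mt-nd6. They are 7 of the 32883 genes in an RNA sequencing study of rat oligodendrocyte precursor cells (OPCs) in culture. OPCs are glial progenitors that divide and can mature into myelinating oligodendrocytes. Their rows were chosen by gene symbol, and each symbol matched 1 row. The set was taken up after the FPKM values of these same libraries had been seen, because Mt-nd3 and Mt-nd4 stood apart from the rest. Levels, gene-to-gene ratios and the male to female differences of the members are therefore a description, and no p-value is given for them.

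Primary cultures from the cerebral cortex of male and of female Sprague Dawley rats, 1 to 2 days old, were compared, with 4 libraries of each sex. In both groups mixed glia were kept in medium with 20% serum, the non-adherent cells were collected as OPCs, and these were held for 4 to 5 days in PDGF and FGF (10 ng/ml each) with 2% B27. Sex is the only factor that differs in the labels, and nothing in them says whether libraries of one sex came from separate animals or litters, so the spread between libraries may be technical. Values are the authors' FPKM, fragments scaled by transcript length and library size, so levels of different genes are compared per length.

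Complex I takes electrons from NADH, passes them to ubiquinone and pumps protons across the inner mitochondrial membrane. Its mitochondrially encoded subunits all sit in the membrane arm, while the nuclear genome supplies the NADH-oxidising arm and many accessory subunits. Mitochondrial genes are transcribed as long polycistronic RNAs that are cut into single mRNAs, so the level of each mRNA depends on transcription, processing and decay. In most mammalian mRNA preparations these transcripts are among the most abundant.

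The OPC markers were present in every library. Pdgfra, the PDGF receptor gene, stood at 229 ± 10.4 FPKM in male and 303 ± 27.8 FPKM in female libraries (SD, n = 4). The lineage factor gene Olig2 stood at 258 ± 17.2 and 304 ± 11.7 FPKM. Of single genes of other cell types, astrocytic Gfap stood at 2.39 and 1.96 FPKM, neuronal Rbfox3 at 2.89 and 3.29 FPKM, and the fibroblast gene Col1a1 did not exceed 0.0355 FPKM. Microglial Aif1 stood at 2.68 FPKM in male and 8.57 FPKM in female libraries, with every female library above every male one. The summed microglia markers likewise ran from 33.2 to 47.0 FPKM in male and from 136 to 161 FPKM in female libraries. Whole lists held more, up to 429 FPKM for the summed neuron markers. Depth relative to male 1, read from the steps between low values, ranged from 0.553 to 1 in male and from 0.303 to 0.980 in female libraries, and absolute depth is unknown.

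Together the members made up 3.08%, 3.19%, 3.17% and 3.11% of the summed FPKM in male 1 to male 4. In female 1 to female 4 they made up 3.88%, 3.88%, 4.61% and 4.34%. Every female library lay above every male one, and female 3 and female 4 lay above female 1 and female 2. The mean share was 3.14% ± 0.0512 (SD, n = 4) in male and 4.18% ± 0.361 in female libraries. All 13 mitochondrially encoded mRNA genes together held 19.9% ± 0.617 of the summed FPKM in male and 26.0% ± 1.91 in female libraries. Within those 13 the complex I members kept a similar place, at 15.5% to 16.1% in male and 15.7% to 16.4% in female libraries, and these ranges overlap.

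**Figure D1:**
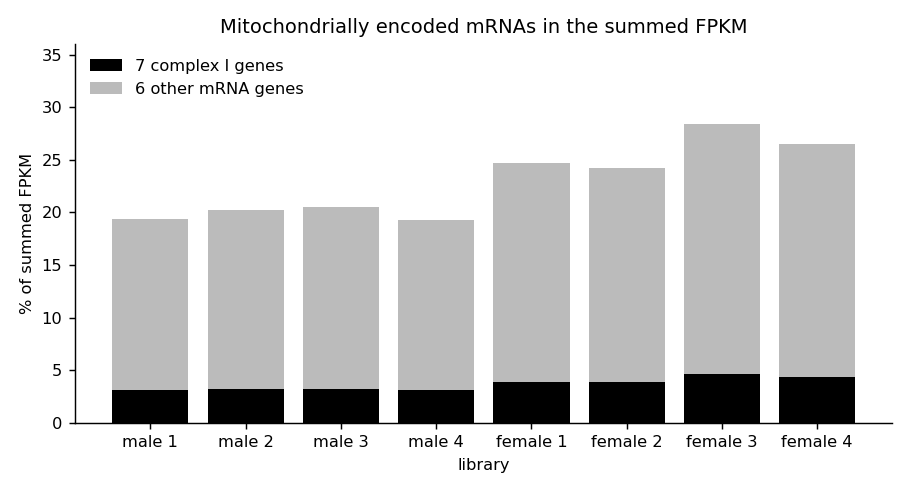
Percent of the summed FPKM (vertical axis) held by the 7 complex I genes (black) and by the 6 other mitochondrially encoded mRNA genes (grey) in each library, with 1 stacked bar per library. The black part runs from 3.08% to 3.19% in male and from 3.88% to 4.61% in female libraries.

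The order of the members by level was nearly the same in all 8 libraries. Mt-nd1, Mt-nd2 and Mt-nd3 came first, in that order, and Mt-nd5 and Mt-nd4 came last in every library. Mt-nd4l and Mt-nd6 shared the places between and could not be ordered, since Mt-nd4l was above Mt-nd6 in 5 of 8 libraries. In mean FPKM over male libraries the steps were 5999 for Mt-nd1, 5390 for Mt-nd2, 4352 for Mt-nd3, 1927 for Mt-nd4l, 1856 for Mt-nd6, 1545 for Mt-nd5 and 51.3 for Mt-nd4.

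**Figure D2:**
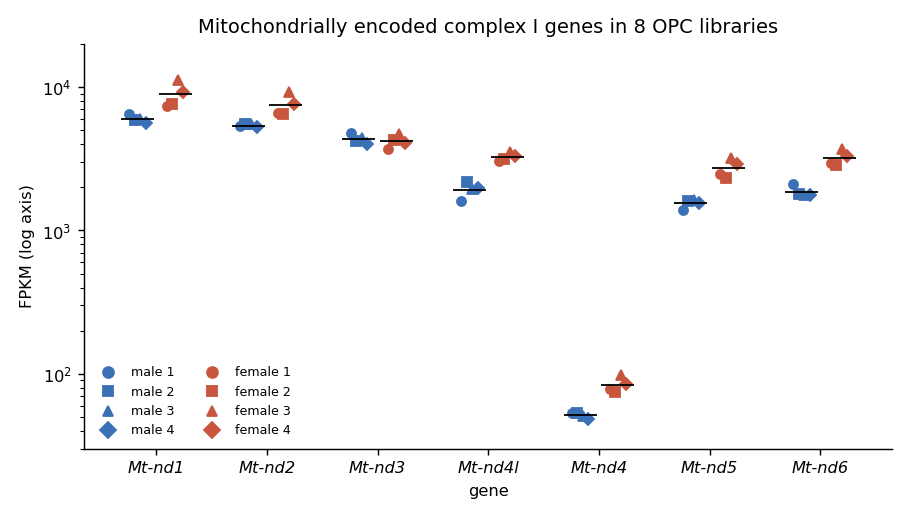
FPKM on a log axis (vertical) for each complex I gene of the mitochondrial genome (horizontal), with 1 point per library, male in blue and female in red, and the mean of 4 as a black line. Mt-nd4 lies between 48.2 and 98.9 FPKM in all libraries while the next lowest member, Mt-nd5, lies between 1379 and 3223 FPKM.

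Mt-nd1 and Mt-nd2 were the most abundant members. Mt-nd1 (ENSRNOG00000030644), whose subunit forms part of the ubiquinone-binding site at the joint of the arms, had 6466, 5922, 6017 and 5590 FPKM in the male libraries 1 to 4. In female 1 to female 4 it stood at 7434, 7660, 11239 and 9304 FPKM. No values of the sexes overlapped, and female 3 was the highest library. The log2 difference, taken as male minus female of log2(FPKM + 1), was -0.55 ± 0.12 (SE), and the female mean was 1.49 times the male mean.

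Mt-nd2 (ENSRNOG00000031033) encodes one of the antiporter-like subunits of the proton-pumping arm. It stood at 5318, 5490, 5500 and 5252 FPKM in male 1 to male 4, a spread of 2.31% of the mean (SD), the smallest of the members in male libraries. Female 1 to female 4 had 6564, 6547, 9192 and 7650 FPKM, again without overlap and with female 3 highest. The log2 difference was -0.46 ± 0.10, the smallest among the members that were higher in female cultures.

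Mt-nd4l, Mt-nd5 and Mt-nd6 lay lower in level and further apart between the sexes. Mt-nd4l (ENSRNOG00000031053), a small subunit beside the ubiquinone site whose reading frame overlaps that of Mt-nd4 on a shared mRNA, stood at 1597, 2194, 1949 and 1966 FPKM in male 1 to male 4. Its female values were 3069, 3170, 3508 and 3330 FPKM. The groups were separated by a gap from 2194 to 3069 FPKM, male 1 was the lowest library, and the log2 difference was -0.77 ± 0.09.

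Mt-nd5 (ENSRNOG00000029971), the antiporter-like subunit at the far end of the membrane arm, stood at 1379, 1605, 1641 and 1554 FPKM in male 1 to male 4. The values in female 1 to female 4 were 2478, 2326, 3223 and 2916 FPKM. The female mean was 1.77 times the male mean, the largest ratio of the members, with a log2 difference of -0.82 ± 0.10 and no overlap.

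Mt-nd6 (ENSRNOG00000029042) is the member encoded on the opposite, light strand of the mitochondrial genome, next to Mt-nd5. Male 1 to male 4 had 2120, 1788, 1761 and 1754 FPKM, and female 1 to female 4 had 2948, 2865, 3682 and 3331 FPKM. Male 1 was the highest male library here, whereas for Mt-nd4l and Mt-nd5 it was the lowest. The log2 difference was -0.79 ± 0.09, without overlap. The library kit marks strand, but the use of strand in counting is not given in the sources used here, so reads of Mt-nd6 and of RNA from the other strand may not have been told apart.

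Mt-nd4 had a level far below its neighbours. Mt-nd4 (ENSRNOG00000029707), which encodes an antiporter-like subunit and shares its mRNA with Mt-nd4l, had 53.1, 53.1, 50.8 and 48.2 FPKM in the male libraries 1 to 4. Female 1 to female 4 had 77.8, 74.7, 98.9 and 84.9 FPKM, all above the male values. Among all genes it ranked between 990 and 2000 by level, while the other 6 members ranked between 7 and 57. FPKM of Mt-nd4l was 30.1 to 42.5 times that of Mt-nd4 within a library, and FPKM of Mt-nd5 was 26.0 to 34.4 times it.

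The low level of Mt-nd4 was steady over libraries, and its sex difference was like those of its neighbours. The log2 difference was -0.69 ± 0.09, and the female mean was 1.64 times the male mean. The ratio of Mt-nd4l to Mt-nd4 was 37.6 ± 5.20 in male and 39.1 ± 2.86 in female libraries (SD, n = 4), with overlapping values. Neither the ratio of Mt-nd5 to Mt-nd4 (30.2 ± 2.95 and 32.5 ± 1.38) nor that of Mt-nd6 to Mt-nd4 (36.2 ± 2.75 and 38.2 ± 0.850) separated the sexes. Reads in the overlap of Mt-nd4l and Mt-nd4, and reads that also fit nuclear copies of mitochondrial DNA, could be assigned in more than one way, and how the authors assigned them is not given in the sources used here. The level of Mt-nd4 against the other members is therefore uncertain, and the part of read assignment in it was not tested.

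Mt-nd3 had no female excess. Mt-nd3 (ENSRNOG00000033615) encodes a small subunit with a flexible loop near the ubiquinone site that changes position when the enzyme goes from its active to its resting form. The male libraries 1 to 4 had 4806, 4224, 4389 and 3990 FPKM, and the female libraries 1 to 4 had 3683, 4263, 4741 and 4059 FPKM. The highest library was male 1 and the lowest female 1, and the sexes overlapped. The log2 difference was 0.06 ± 0.08, and its sign changed when female 1 was left out (-0.00098), when relative depth was a covariate (-0.040) and after quantile normalization (-0.15).

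Set against the other members, Mt-nd3 took a smaller place in female cultures. It held 22.1%, 19.9%, 20.6% and 19.8% of the summed FPKM of the 7 members in male 1 to male 4. In female 1 to female 4 it held 14.0%, 15.8%, 13.3% and 13.2%, below every male library. Within the summed FPKM of the 13 mitochondrially encoded mRNAs its share was 3.26% ± 0.178 in male and 2.27% ± 0.182 in female libraries (SD, n = 4). As a share of the whole library it was 0.646% ± 0.0284 and 0.587% ± 0.0333, where the lowest male value (0.6153%) lay just above the highest female one (0.6145%).

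Ratios of Mt-nd3 to each other member within a library separated the sexes. Mt-nd3 was 2.35 ± 0.105 times Mt-nd6 in male and 1.31 ± 0.121 times Mt-nd6 in female libraries (SD, n = 4). Mt-nd1 was 1.38 ± 0.0271 times Mt-nd3 in male and 2.12 ± 0.263 times Mt-nd3 in female libraries. Of the 21 ratios between members, 10 had no overlap between the sexes, 6 of them with Mt-nd3 as one of the genes. Those 6 share that gene and are not separate results. Ratios of other gene pairs were not counted, so nothing is read from these numbers. The remaining 4 set Mt-nd1 or Mt-nd2 against Mt-nd4, Mt-nd5 or Mt-nd6, such as Mt-nd2 to Mt-nd5 at 3.502 ± 0.238 in male and 2.73 ± 0.116 in female libraries. In each of those 4 the male ratio was the higher one. Ratios among Mt-nd4, Mt-nd4l, Mt-nd5 and Mt-nd6 all overlapped between the sexes, as did that of Mt-nd1 to Mt-nd2.

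**Figure D3:**
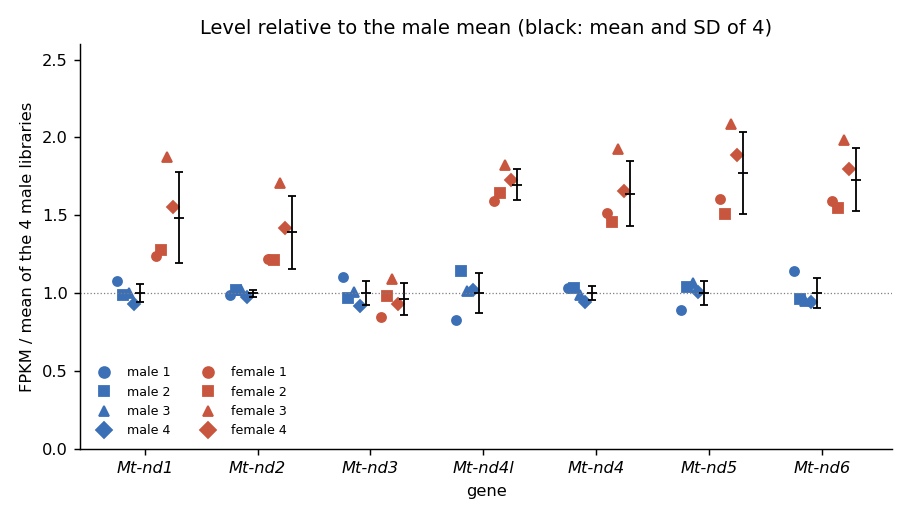
FPKM of each complex I gene divided by its mean over the 4 male libraries (vertical axis, without unit), with 1 point per library, male in blue and female in red, and the mean and SD of 4 in black. Female libraries lie above the male ones for every gene shown except Mt-nd3, whose female mean is 0.962 of the male mean, and female 3 is the highest female library for each gene.

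In the model fitted over the 11263 genes that averaged at least 1 FPKM (limma-trend, Benjamini-Hochberg adjusted p under 0.05), 6 of the 7 members were called as higher in female cultures and none as higher in male ones. Of all tested genes 2.89% were called as higher in female cultures and 6.04% in either direction. Female values lay above all male values for 6 of 7 members and for 6.77% of all tested genes. The median log2 difference was -0.69 over the members and -0.0038 over all tested genes. As the members were proposed with this comparison in view, nothing is read from these counts.

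The members were chosen with these same libraries in view, so calls with libraries left out describe the fit and are not independent support. Mt-nd4, Mt-nd5, Mt-nd6 and Mt-nd4l were called whichever single library was left out. Mt-nd1 and Mt-nd2 lost theirs without male 2, male 3, male 4 or female 4, where their log2 differences were -0.52 to -0.55 and -0.45 to -0.47. Without female 3, the highest female library for each member, the log2 differences were -0.43 for Mt-nd1 and -0.36 for Mt-nd2. In these same data male 1 and female 3 deviated from their groups in a like way (r = 0.242 over 11263 genes). They also had the highest relative depths, 1 and 0.980. Without male 1 and female 3 together, 6 members were called and the median over all 7 was -0.63.

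Depth and other cell types also varied between the libraries. In female libraries Mt-nd1 and Mt-nd4l rose with relative depth, from female 1 (0.303) through 2 (0.366) and 4 (0.533) to 3 (0.980). The other members did not keep this order. Mt-nd2, Mt-nd4, Mt-nd5 and Mt-nd6 were higher in female 1 than in female 2. Mt-nd3 was lower in female 4 than in female 2. Male libraries, at a relative depth of 0.553 to 1, had Mt-nd1 and Mt-nd4l levels below those of every female library. With relative depth as a covariate the log2 difference was -0.72 for Mt-nd1 and -0.90 for Mt-nd6, 6 members were called, and the median over all 7 was -0.76. Of 9 tested microglia markers 7 were called as higher in female cultures, among them Aif1 (2.68 ± 0.948 against 8.57 ± 2.55 FPKM, adjusted p = 0.00654). Their levels summed to 33.2 to 47.0 FPKM in each male and 136 to 161 FPKM in each female library, and none was at 0 in all libraries. Of 7 tested OPC markers 3 were called as higher in female cultures, with sums of 2018 to 2134 FPKM in male and 2430 to 2683 FPKM in female libraries. Of 7 tested oligodendrocyte markers 2 were called as higher in female cultures, of 7 tested neuron markers 2 as higher in male ones, and of 4 tested astrocyte markers none (1 had an unadjusted p under 0.05). The neuron markers summed to 320 to 360 FPKM in each male and 305 to 429 FPKM in each female library, with 1 of 8 (Slc17a7) at 0 throughout. For the astrocyte markers these sums were 99.2 to 126 and 82.9 to 97.1 FPKM. Neither the part of depth nor that of these cell types in the members' levels was tested. In bulk RNA fewer cells of a type and less RNA per cell cannot be told apart.

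The 6 other mitochondrially encoded mRNAs had the same direction as most members. They encode cytochrome b, subunits of cytochrome oxidase and of ATP synthase, and all 6 were called as higher in female cultures, with log2 differences from -0.41 (Mt-cox3) to -0.62 (Mt-cyb). Mt-cyb and Mt-atp8 were called whichever single library was left out. Mt-co1, Mt-co2, Mt-cox3 and Mt-atp6 lost their call without male 2, male 3, male 4 or female 4 and with the replicate number as a block, and Mt-atp6 also without male 1 (log2 differences from -0.37 to -0.46). Mt-co1 and Mt-atp6 also lost it without the filter on mean FPKM, and Mt-co1 without male 1 and female 3 (-0.35). With quantile normalization only Mt-cyb (-0.31) of the 6 was called. In the reported fit Mt-nd4l, Mt-nd4, Mt-nd5 and Mt-nd6, with -0.69 to -0.82, lay beyond the range of the 6, -0.41 to -0.62. Mt-nd1 and Mt-nd2 lay within it, and Mt-nd3 outside it on the other side. In the known gene order of the mitochondrial genome Mt-nd3 stands between Mt-cox3 (-0.41 ± 0.09) and Mt-nd4l (-0.77 ± 0.09). Whether the members differ from the other mRNAs was not tested.

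**Figure D4:**
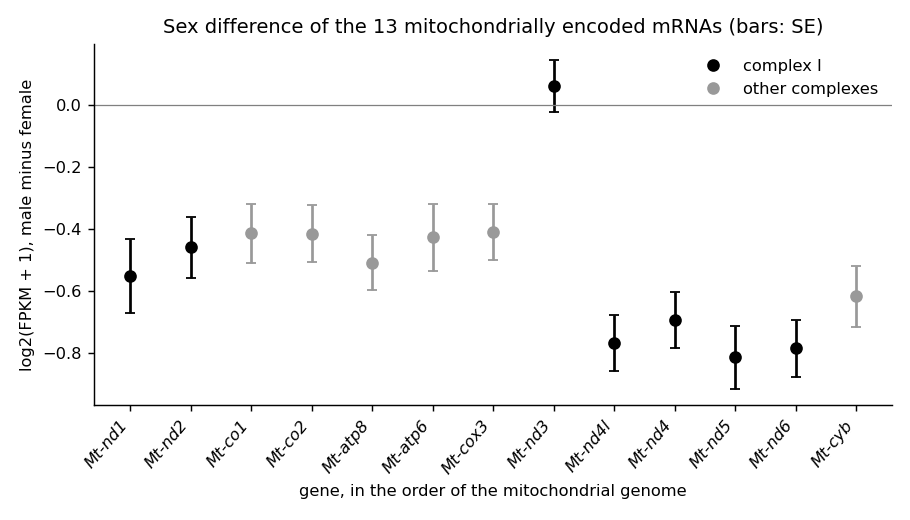
Difference in log2(FPKM + 1), male minus female, with its SE (vertical axis) for the 13 mitochondrially encoded mRNA genes in the order of the mitochondrial genome, complex I genes in black and the others in grey. Mt-nd3 is at 0.06, and the other genes lie between -0.41 and -0.82.

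Relative to the summed FPKM of the 13 mRNAs the members fell into groups. Mt-nd5 held 1.16% ± 0.101 of it in male and 1.47% ± 0.0712 in female libraries, and Mt-nd6 1.39% ± 0.120 and 1.73% ± 0.0497 (SD, n = 4), both without overlap. Mt-nd4 moved in the same direction from 0.0384% ± 0.00108 to 0.0453% ± 0.000892, also without overlap. Mt-nd1 (4.49% ± 0.170 and 4.77% ± 0.318), Mt-nd2 (4.04% ± 0.128 and 4.02% ± 0.133) and Mt-nd4l (1.45% ± 0.205 and 1.77% ± 0.128) overlapped between the sexes. Only Mt-nd3 had a share that was higher in every male library.

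The nuclear genes of complex I, which must supply the remaining subunits, were compared in the same fit. Of 37 listed nuclear subunit genes 36 were found and 33 tested, and none was called in either direction (4 had an unadjusted p under 0.05). Ndufs6, Ndufa1 and Ndufa13, at means of 0.130, 0.120 and 0.858 FPKM over the 8 libraries, fell below the filter. Over the tested genes the median log2 difference was 0.079. Ndufs7, among the 7 core subunit genes, which carry the electron path, had a log2 difference of 0.17 ± 0.10 (adjusted p = 0.345). Among 26 accessory subunit genes those with the smallest p were Ndufb6 (136 ± 5.64 against 112 ± 20.0 FPKM, 0.29 ± 0.11, adjusted p = 0.180) and Ndufa9 (0.17 ± 0.07, adjusted p = 0.181). For none of the 33 were the sexes without overlap. Of all tested genes 6.04% were called in either direction, and 6.77% had all female values above all male ones. The share with all male values above all female ones was not counted.

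The count of called nuclear subunit genes depended on the scaling. With FPKM rescaled to the same sum in each library, which raises male values against female ones on average, the median of all genes was 0.069. Then 5 nuclear subunit genes were called as higher in male cultures (Ndufa2, Ndufa9, Ndufa11, Ndufb5 and Ndufb6, with log2 differences of 0.25 to 0.37), and 6 members remained called as higher in female ones. With FPKM rescaled to the same sum over genes that are not mitochondrially encoded, no nuclear subunit gene was called and the members' median was -0.73. Male libraries had 5110 to 6200 summed FPKM of the nuclear subunit genes and female ones 4733 to 5764. For the members the sums were 20154 to 21740 and 26254 to 35683 FPKM.

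Genes that assemble complex I and that make mitochondrial RNA showed no called difference. Of 17 tested assembly factor genes none was called (2 had an unadjusted p under 0.05), and the median log2 difference was 0.15. Ndufaf4, an assembly factor gene, stood at 8.67 ± 0.744 against 6.60 ± 0.417 FPKM, with all male libraries above all female ones (0.35 ± 0.11, adjusted p = 0.0994). In all, 2 of the 17 had that separation, and its share over all tested genes was not counted. Tmem186 had 0.25 ± 0.11 (adjusted p = 0.218). Of 32 tested genes of mitochondrial DNA transcription, replication, RNA processing and RNA stability none was called (3 had an unadjusted p under 0.05), with a median of 0.035. All male libraries lay above all female ones for 1 of the 32. The share called over all tested genes was 6.04% in either direction, so nothing is read from the absence of calls in either list.

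Tfam, which packages mitochondrial DNA and starts its transcription, stood at 57.7 ± 3.50 against 50.8 ± 5.79 FPKM (0.18 ± 0.09, adjusted p = 0.274). Mterf3, a gene of the mitochondrial termination factor family, had 0.43 ± 0.15 (adjusted p = 0.133). The mitochondrial exonuclease gene Rexo2 stood at 58.2 ± 8.65 against 41.9 ± 6.89 FPKM (0.47 ± 0.14, adjusted p = 0.0760). Slirp, whose protein binds and stabilises mitochondrial mRNAs together with Lrpprc, stood at 20.2 ± 1.15 against 16.1 ± 2.85 FPKM (0.32 ± 0.12, adjusted p = 0.144). Rexo2 and Slirp were called as higher in male cultures under the rescaling to the same sum, Rexo2 also without male 4 and Slirp without female 3.

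**Figure D5:**
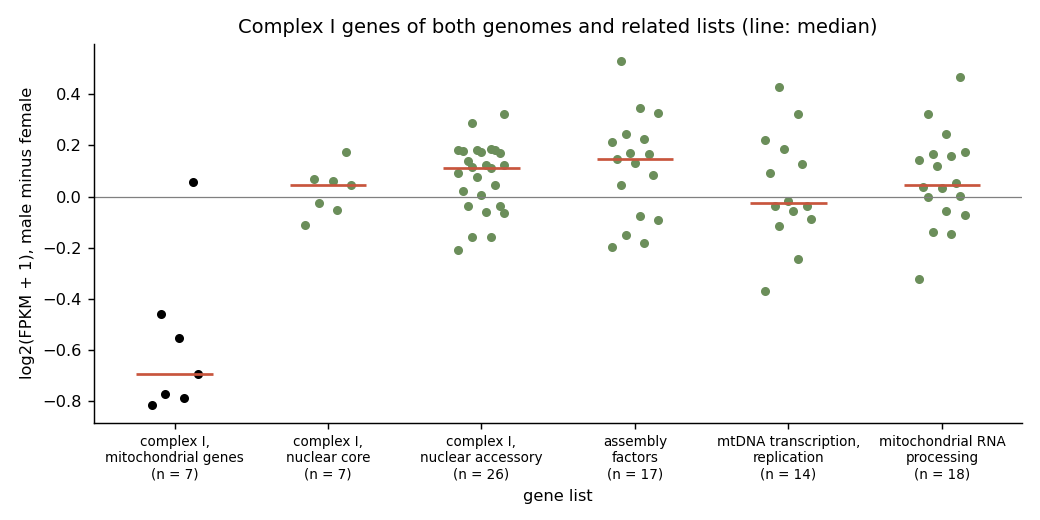
Difference in log2(FPKM + 1), male minus female (vertical axis), for each tested gene of 6 lists, with 1 point per gene and the median as a red line. The mitochondrially encoded complex I genes have a median of -0.69, and the nuclear lists have medians between -0.027 and 0.15.

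By Pearson r over the 8 libraries on log2(FPKM + 1), the nuclear genes most like Mt-nd3 were Rwdd1 (r = 0.975), Uqcrq (r = 0.974) and Mrpl42 (r = 0.974). Uqcrq encodes a subunit of respiratory complex III and Mrpl42 a protein of the mitochondrial ribosome. Most like Mt-nd4 were Acvr1b (r = 0.983), Arhgap33 (r = 0.970) and Mtmr7 (r = 0.957). Most like the mean of the 5 other members were Acvr1b (r = 0.977), Ephb6 (r = 0.964) and Arhgap33 (r = 0.958). These are the highest of many correlations, the libraries share their sex groups and depths, and r is given as a description. The range of FPKM was narrow in some of these genes, as in Acvr1b, an activin receptor gene, with 9.39 to 10.7 FPKM.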

How the data were processed

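RNA was measured in 8 libraries of cultured rat OPCs. The authors deposited FPKM values per gene, per the file headers. The submitters' processing notes name Trimmomatic and FastQC without versions. The aligner, quantifier, genome build and annotation were not given in the sources used here. As FPKM holds no counts, absolute depth is unknown, and no count test was run. Relative depth was the most frequent ratio of low values to male 1.

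Values were taken as log2(FPKM + 1) for the 11263 genes that averaged at least 1 FPKM. All 8 libraries were fitted with limma (3.58.1, R 4.3.3), using its intensity trend, robust moderation and Benjamini-Hochberg adjustment over all tested genes (threshold 0.05). The fit was tested on simulated data. Differences are male minus female.

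The members and gene lists were chosen with earlier results of these data known. Named are all members, the other mitochondrial mRNAs, the called or else the 2 genes with the smallest p of each nuclear list, marker genes fixed by name, and the 3 nuclear genes most like each of 3 profiles. A gene taken by this rule is left unreported. Genes called only under an alternative setting were named after their values were seen. List symbols absent from the table were matched by an older name in the RefSeq gene table of GRCr8. Alternatives were other pseudocounts, filters and scalings, a block, a depth covariate and left-out libraries. Protein and transcript sequences of the members were not used here.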

Additional observations from a re-analysis of the deposited data

Results flagged for a closer look

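Mt-nd6 in male 1 stood at 2120 FPKM, while the other male libraries had 1754 to 1788 FPKM. The gap to the nearest library was 0.907 of the range of the male group, above Dixon's critical value for a group of 4. This was 1 of 52 groups examined, and chance marks about 1 in 20. In the same library Mt-nd4l (1597 FPKM) and Mt-nd5 (1379 FPKM) were at their lowest, and the ratio of Mt-nd6 to Mt-nd5 was 1.54, against 1.07 to 1.23 in the other 7 libraries.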

How the results depend on the processing

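The 18 alternative fits left between 4 and 6 members called, all as higher in female cultures. Mt-nd3 was among them only with quantile normalization (-0.15). That setting called neither Mt-nd1 (-0.18) nor Mt-nd2 (-0.12) nor Mt-nd4l (-0.73). Left-out libraries gave 4 to 6 called members, 296 to 808 called genes in all, 0 to 1 nuclear complex I subunit genes (Ndufc1 without female 3), 0 assembly factor genes and 0 to 1 genes of mitochondrial DNA and RNA. Over all genes 680 were called in the reported fit and 367 with relative depth as a covariate. Rescaling to the same sum called 959 (80.0% of them higher in male cultures, against 52.1% as reported), with 5 nuclear subunit genes and 2 of mitochondrial DNA and RNA. Without male 1 and female 3, 1 nuclear subunit gene was called (Ndufa11). The cause was not tested.

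Signs turned for Mt-nd3 (-0.15 with quantile normalization, -0.040 with the depth covariate, -0.00098 without female 1, where left-out libraries gave values up to 0.12), for Mt-nd2 as a share of the 13 mitochondrial mRNAs (0.0057) and for Mt-atp6 with quantile normalization (0.011). Neither marker Gfap nor Rbfox3 was called, and their signs turned too. Gfap had -0.32 without male 1 and female 3 and -0.0015 to 0.79 with single libraries left out, and Rbfox3 -0.27 to 0.036, the last without male 3. Quantile normalization gives the same value in every library to a gene with 1 fixed rank, so Mt-atp8, Mt-co2 and Mt-cox3 were set to a difference of 0.

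With the replicate number as a block 397 genes and 5 members were called, and Mt-nd1 was not. The numbers are not said to pair the cultures, same-numbered libraries did not deviate together (r from -0.0851 to 0.0767), and male 1 correlated best with female 3 (r = 0.242).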
